A study of Mus musculus with 8 samples.

Results

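The miR-181 family is described here by the 4 mature guide strands that carry its name, mmu-miR-181a-5p, mmu-miR-181b-5p, mmu-miR-181c-5p and mmu-miR-181d-5p, out of 1978 mouse mature miRNAs counted. The members were taken by name and by their common seed and not by a measured value, though earlier results of these data were known. All 4 passed the filter on low values, which kept 180 miRNAs for testing. The 6 strands of the opposite arms (3p, the passenger strands) were followed as a separate list, and 1 of them passed the filter. The prefix mmu, for mouse, is left out below.

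The libraries were made from small RNA of the non-tumorigenic mouse hepatocyte line 3A and of the extracellular vesicles (EVs, membrane vesicles released by cells) in its medium. All cells were stably infected with a pSUPER retro puro retroviral vector and selected with puromycin for at least a week. In shCTR this vector carried a scrambled shRNA, and in shPCBP2 an shRNA against PCBP2, an RNA-binding protein with KH domains. All grew on collagen I in RPMI with FBS, EGF, IGF II and insulin, and EVs were collected by ultracentrifugation after 72 h in medium with EV-depleted FBS. Whether an shRNA line was 1 clone or a pool is not given in the sources used here. Cells and EVs of each line were sequenced, which gave 4 conditions with 2 biological replicates each. The study asked which miRNAs are exported in EVs and which are retained in the cell when PCBP2 is silenced. These libraries do not measure PCBP2 mRNA, so the silencing itself was not analysed here.

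A miRNA guide strand is loaded into an Argonaute protein and pairs through its seed with target transcripts, which are then repressed. Strands with the same seed share most of their predicted targets, while the bases after the seed differ between family members. miR-181a is best known for raising the sensitivity of thymocytes to antigen, and in liver the family has been studied in fibrosis and in stem-like hepatocellular carcinoma cells.

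The guide strands are shown because they share the seed and differ in only a few later bases, which is what separates their reads. They were taken from RefSeq (GRCm38.p6), with the seed (bases 2 to 8) in capitals.
miR-181a-5p: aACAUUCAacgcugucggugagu
miR-181b-5p: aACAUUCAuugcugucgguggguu
miR-181c-5p: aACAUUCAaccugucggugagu
miR-181d-5p: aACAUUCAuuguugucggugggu
Of the 1679 mature mouse miRNAs in the RefSeq table, these 4 were the only ones with the seed ACAUUCA. Positions are counted from 1 at the 5′ end. From miR-181a-5p to miR-181b-5p the bases changed at A9U, C10U and A21G, and from miR-181b-5p to miR-181d-5p the single difference over 23 compared bases was C12U. miR-181c-5p lacks the G at position 11 of miR-181a-5p. Reads of miR-181b-5p and miR-181d-5p can therefore be told apart by 1 internal base and by the end of the read, so their separate counts are uncertain to the extent that a sequencing error moves a read between them.

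The same sequences were searched, in the 5′ to 3′ direction of the mature strand alone, for AUUA and AUUG, the core of the motif that the study associates with retention of miRNAs in hepatocytes. AUUG was found from base 8 of miR-181b-5p and miR-181d-5p, overlapping the last base of the seed, and is shown here in capitals.
miR-181b-5p: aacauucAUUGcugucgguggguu
miR-181d-5p: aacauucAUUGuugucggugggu
Neither motif occurs in miR-181a-5p or miR-181c-5p. AUUG was present in 114 of 1679 RefSeq mature miRNAs (6.79%), and AUUA or AUUG in 149 (8.87%). Among the 180 tested miRNAs, 156 (86.7%) could be matched to a RefSeq sequence, and 25 of these (16.0%) held AUUA or AUUG. A match is a string of letters in the mature strand and not evidence of binding. In the study, this motif alone did not allow binding of PCBP2. Binding also required hEXO, a second motif recognised by the RNA-binding protein SYNCRIP. The study lists miR-181d-5p among miRNAs with both motifs and reports PCBP2 bound to it by crosslinking and immunoprecipitation. By RT-qPCR of EV/cell ratios, it reports for this group that silencing releases loading into EVs. In the sequencing libraries used here, the fitted EV/cell ratio of miR-181d-5p went the other way (log2 change -0.96 in shPCBP2 against shCTR). That change did not pass the correction over all tested miRNAs, as given below. hEXO was not searched for here.

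The family is encoded by 6 hairpins in 3 pairs. miR-181a-5p is identical from Mir181a-1 (chr1:137966468-137966490, plus strand) and Mir181a-2 (chr2:38852741-38852763, plus strand). miR-181b-5p is likewise identical from Mir181b-1 (chr1:137966650-137966673) and Mir181b-2 (chr2:38853845-38853868), both on the plus strand. The hairpins of the chromosome 1 pair lie 97 bases apart, within an intron of the transcript Gm4258 and overlapping an exon of the lincRNA A430106G13Rik on the same strand. Those of the chromosome 2 pair lie 1019 bases apart in an intron of Nr6a1, on the strand opposite to that gene. miR-181c-5p (chr8:84178924-84178945) and miR-181d-5p (chr8:84178759-84178781) come from hairpins 85 bases apart on the minus strand, within Nanos3 and in its intron (gene annotation from GENCODE). Counts of miR-181a-5p and miR-181b-5p are thus sums over 2 hairpins each, and counts of miR-181c-5p and miR-181d-5p come from 1 hairpin each.

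Mouse miRNAs received 8745848 to 12732173 reads per cell library and 503070 to 687592 reads per EV library, while the spike-in, the nematode cel-miR-39-3p added to each RNA sample, took 15734400 to 37548200. Spike-in-scaled levels are given as reads per 1000000 spike-in reads. The mature strands are 22 to 24 bases long and a read covers a whole strand, so levels were compared between members without a length correction. Replicate numbers follow the sample titles. The libraries are described as biological replicates, with nothing further on separate cultures. Of the hepatocyte miRNAs, miR-194-5p had 218474 to 342726 reads and miR-192-5p 10976 to 20510 in the cell libraries, whereas miR-122-5p, the most abundant miRNA of liver tissue, had 356 to 485 there and 795 to 2327 in the EV libraries. The log2 EV/cell ratio of miR-122-5p was 1.02 in shCTR and 1.15 in shPCBP2, not called (adjusted p = 0.251 and 0.213, edgeR quasi-likelihood test, Benjamini-Hochberg adjusted). The summed level of these 3, most of it miR-194-5p in cells, was 13024 to 20407 in cells and 184 to 293 in EVs on the spike-in scale, with miR-192-5p at 0 in both EV shPCBP2 libraries. Of 7 miRNAs typical of blood cells and serum, 4 had 0 reads in every cell library, among them the red blood cell miRNA miR-451a. On the spike-in scale their summed level was 1243 to 1696 in EVs, 12.5 to 15.9 in shCTR cells and 4.76 to 5.56 in shPCBP2 cells. The values in cells rest on few reads, with miR-486a-5p at 193, 155, 68 and 85. This list thus moved with the compartment and, in cells, with silencing, and its part in the EV to cell differences and in the cell changes below was not tested.

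In cells, the 3 abundant guide strands were close to each other in shCTR and stood in another order with silencing. The control libraries held 69079 and 58992 reads of miR-181a-5p against 21723 and 28761 with silencing, or spike-in-scaled levels of 3876 and 3749 against 1231 and 1614. Its shPCBP2 libraries were both below its shCTR libraries. For miR-181b-5p the counts were 54623 and 56700 against 27630 and 37653, giving spike-in-scaled levels of 3065 and 3604 against 1566 and 2113, again without overlap. Silencing left miR-181d-5p at 34690 and 50844 reads, compared with 48064 and 41278 in the control, with spike-in-scaled levels of 2697 and 2623 against 1966 and 2853, and here the replicates of both conditions overlapped. miR-181c-5p was the rare member, at 2286 and 1521 reads without and 1196 and 1373 with silencing. Its control levels of 128 and 96.7 on the spike-in scale lay above the 67.8 and 77.1 of the shPCBP2 cells. Fewer cells or EVs and less miRNA in each of them cannot be told apart in these bulk samples.

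In EVs, miR-181a-5p exceeded every other member in both conditions. Control EVs held 3926 and 3222 of its reads and shPCBP2 EVs 5536 and 3294, or spike-in-scaled levels of 141 and 124 against 147 and 108, which overlapped. For miR-181b-5p, 821 and 761 reads in control EVs compared with 1421 and 628 with silencing, with spike-in-scaled levels of 29.6 and 29.2 against 37.8 and 20.7. Its shPCBP2 libraries lay on either side of the shCTR libraries. miR-181d-5p went from 888 and 653 reads to 498 and 404. Both its control EV levels, 32.0 and 25.1 on the spike-in scale, were above the 13.3 of each shPCBP2 library. miR-181c-5p was sparse in EVs, at 44 and 106 reads without and 128 and 0 with silencing. The library without reads of miR-181c-5p, EV shPCBP2 replicate 2, had the lowest number of mouse miRNA reads of all 8.

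**Figure D1:**
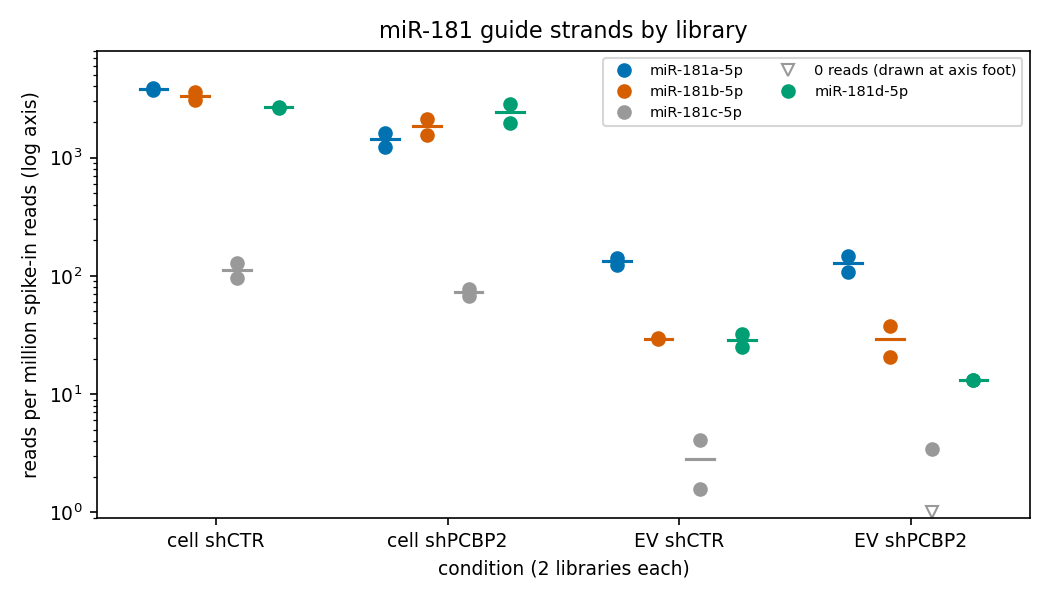
Levels of the 4 miR-181 guide strands in reads per 1000000 spike-in reads (log axis) by condition, with a point for each of 2 libraries and a line at their mean. The 3 abundant strands sit together between 1231 and 3876 in cells, and miR-181a-5p lies above the others in EVs (108 to 147). The open triangle marks the library with 0 reads of miR-181c-5p.

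The order of the members differed between the conditions. In cell shCTR it was miR-181a-5p, miR-181b-5p, miR-181d-5p and miR-181c-5p, with ratios of neighbouring mean levels of 1.14, 1.25 and 23.7, and the replicates of neighbours did not overlap. In cell shPCBP2 it was miR-181d-5p, miR-181b-5p, miR-181a-5p and miR-181c-5p. The spike-in-scaled levels of the first 3 overlapped between neighbours, but each library held these 3 in the same order. Within the libraries, miR-181d-5p was 1.26 and 1.35 times miR-181b-5p, and miR-181b-5p was 1.27 and 1.31 times miR-181a-5p. In EV shCTR the mean of miR-181a-5p was 4.51 times that of miR-181b-5p, which could not be separated from miR-181d-5p (ratio 1.03, overlapping). In EV shPCBP2 the order was miR-181a-5p, miR-181b-5p, miR-181d-5p and miR-181c-5p, with ratios of 4.37, 2.2 and 7.79 and no overlap.

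The share of each strand in the summed reads of the family is free of any scaling between libraries. miR-181a-5p made up 38.5% ± 1.74 (SD, n = 2) of the family in control cells and 24.9% ± 0.877 in silenced cells, and 68.5% ± 0.839 and 74.6% ± 2.22 in the EVs of these cells. Its share was thus lower in shPCBP2 in cells and higher in shPCBP2 in EVs, without overlap in either. miR-181d-5p showed the opposite, from 26.8% ± 1.11 to 41.8% ± 1.53 in cells and from 14.7% ± 1.32 to 7.95% ± 1.96 in EVs. A share also moves with the other strands, and the spike-in-scaled levels of miR-181d-5p in cells overlapped between the conditions. The share of miR-181b-5p was 33.6% ± 3.11 without and 32.1% ± 0.477 with silencing in cells, and 15.3% ± 1.13 without and 16.6% ± 2.99 with it in EVs, overlapping in both compartments. miR-181c-5p stayed between 0% and 2.24% of the family in every library. The 95% Wilson intervals of single libraries reached at most 0.330 percentage points to either side in cells and 1.33 in EVs. They cover counting error only, because without molecular identifiers several reads can stem from 1 molecule. With 2 libraries against 2, an exact two-sided permutation test cannot go below p = 0.333, so no test of the shares was made. All 4 strands together took 1.37% and 1.35% of the mouse miRNA reads in control cells and 0.975% and 0.939% in silenced cells. In control EVs they took 0.826% and 0.857%, and with silencing 1.23% and 0.860%.

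**Figure D2:**
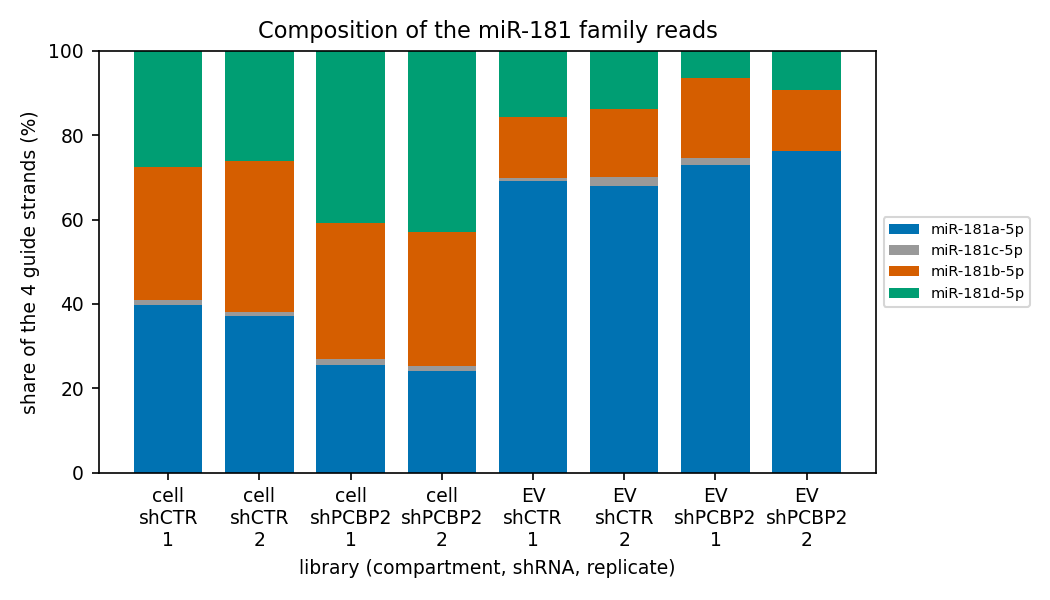
Share of each guide strand in the summed reads of the 4 miR-181 guide strands (stacked, %) in each of the 8 libraries. The part of miR-181d-5p is widest in cell shPCBP2 (40.7% and 42.9%) and narrowest in EV shPCBP2 (6.57% and 9.34%).

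Silencing of PCBP2 went with fitted changes of the EV/cell ratio that differed in sign between members. The ratio of miR-181a-5p was 2.59-fold higher in shPCBP2 (log2 change 1.37, standard error 0.34) and that of miR-181d-5p 1.95-fold lower (log2 change -0.96, standard error 0.35). miR-181b-5p stood between them at 0.85 (standard error 0.47), and miR-181c-5p gave -0.091 with a standard error of 2.60. The median over the 180 tested miRNAs was -0.079 on the same log2 scale. None of the 4 passed the correction (edgeR quasi-likelihood test, Benjamini-Hochberg adjusted), with adjusted p-values of 0.124 for miR-181a-5p, 0.731 for miR-181b-5p, 0.992 for miR-181c-5p and 0.434 for miR-181d-5p. Over all tested miRNAs 2.22% passed (4 of 180), 17 had an unadjusted p under 0.05, DESeq2 called 14 (miR-181a-5p among them) and limma voom 0. Of the members, miR-181a-5p had an unadjusted p of 0.00690 and miR-181d-5p of 0.0338 in edgeR, and the other two were above 0.05. The adjusted p of miR-181a-5p ranged from 0.00217 with DESeq2 to 0.763 without the filter over 10 alternatives, 4 of them under 0.05. Without EV shPCBP2 replicate 1, the fitted change of miR-181c-5p was -8.32 with an adjusted p of 0.0364 in edgeR, since its only EV shPCBP2 reads were then left out.

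On the spike-in scale, the larger fitted change of miR-181a-5p lay in cells and that of miR-181d-5p in EVs. In cells, miR-181a-5p was 2.68-fold lower in shPCBP2 (log2 change -1.42, standard error 0.25), with the smallest unadjusted p of the 180 tested miRNAs (adjusted p = 0.110, edgeR quasi-likelihood test, Benjamini-Hochberg adjusted). Over 11 alternatives the adjusted p of this cell change ranged from 2.76e-07 with DESeq2 to 0.346 without the filter, 7 of them under 0.05. In EVs its log2 change was -0.052 (standard error 0.24, adjusted p = 0.947 in edgeR). For miR-181d-5p the order was the opposite, with a log2 change of -0.14 (standard error 0.25) in cells and a 2.15-fold lower level in EVs (log2 change -1.10, standard error 0.25). Its EV change had an unadjusted p of 0.00449 and an adjusted p of 0.0577 (edgeR quasi-likelihood test, Benjamini-Hochberg adjusted). Over 10 alternatives it ranged from 2.95e-04 with DESeq2 to 0.547 with limma voom, 4 of them under 0.05. Leaving out cell shPCBP2 replicate 1 or 2 brought that adjusted p to 0.0468 or 0.0494, at the same log2 change. miR-181b-5p resembled miR-181a-5p, with log2 changes of -0.86 (standard error 0.33, adjusted p = 0.342 in edgeR) in cells and -0.0073 (standard error 0.33) in EVs. miR-181c-5p had log2 changes of -0.64 in cells and -0.73 in EVs, with standard errors of 1.87 and 1.88. Without EV shPCBP2 replicate 1, its EV change was -8.95 (adjusted p = 0.0199 in edgeR).

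By adjusted p, 0 of the 4 members were called in either compartment. In cells 0% of all tested miRNAs were called by edgeR, 25 had an unadjusted p under 0.05 (2 of them members, miR-181a-5p and miR-181b-5p), DESeq2 called 18 (1 member, miR-181a-5p) and limma voom 16 (2 members, miR-181a-5p and miR-181b-5p). In EVs 7.22% were called, 31 had an unadjusted p under 0.05 (1 of them a member, miR-181d-5p), DESeq2 called 27 (1 member, miR-181d-5p) and limma voom 4 (0 members). Across all tested miRNAs the median log2 change was -0.49 in cells and -0.54 in EVs on the spike-in scale. Relative to these medians, miR-181a-5p differed by -0.93 in cells and 0.48 in EVs, miR-181b-5p by -0.37 and 0.53, and miR-181d-5p by 0.35 and -0.57. Scaling by median-of-ratios factors, TMM factors or the total miRNA count turned the signs of 3 small changes, namely miR-181a-5p and miR-181b-5p in EVs (then 0.21 to 0.47) and miR-181d-5p in cells (then 0.13 to 0.33).

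**Figure D3:**
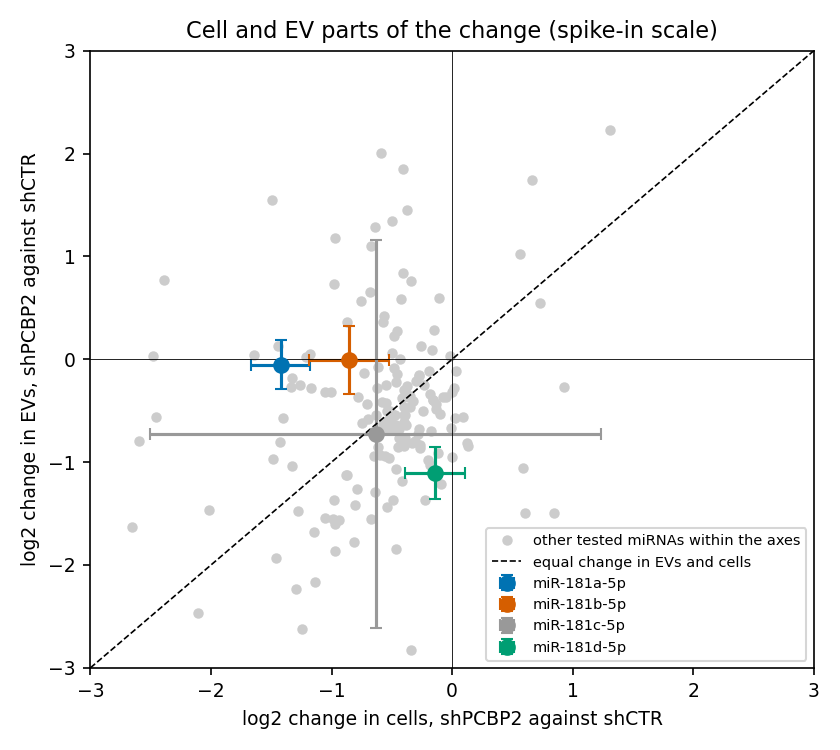
Fitted log2 change between shPCBP2 and shCTR in cells (horizontal axis) and EVs (vertical axis) on the spike-in scale, with standard errors as bars for the 4 guide strands and grey points for 164 other tested miRNAs (12 lie outside the axes). miR-181a-5p lies left of zero near no EV change, miR-181d-5p below zero near no cell change, and the bars of miR-181c-5p cover most of the plot.

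EVs held far less of the 3 abundant members than cells per spike-in read, as for most miRNAs. In shCTR the level in EVs was 28.8-fold lower than in cells for miR-181a-5p, 113-fold lower for miR-181b-5p and 93.2-fold lower for miR-181d-5p. In shPCBP2 the corresponding folds were 11.1, 62.9 and 181. These 3 members were called in both conditions, with adjusted p-values from 5.83e-06 to 4.15e-05 (edgeR quasi-likelihood test, Benjamini-Hochberg adjusted), against 59.4% of tested miRNAs called lower in shCTR and 60.0% in shPCBP2. miR-181c-5p had log2 EV/cell ratios of -5.31 and -5.40 with standard errors of 2.24 and 2.25, and was not called (adjusted p = 0.0775 and 0.0732 in edgeR). Its adjusted p was under 0.05 in 3 of 10 alternatives in shCTR and in 2 of 10 in shPCBP2. Without EV shPCBP2 replicate 1 or 2 it was called in both conditions, with a log2 ratio of -5.31 in shCTR in either case and -13.63 and -4.41 in shPCBP2. The amount of spike-in per amount of RNA enters these folds, so the median over all tested miRNAs is the reference, at -4.93 in shCTR and -4.90 in shPCBP2 on the log2 scale. Relative to it, miR-181a-5p stood at 0.087 in shCTR and 1.42 in shPCBP2. miR-181b-5p stood at -1.89 and -1.08, and miR-181d-5p at -1.61 and -2.61. miR-181c-5p stood at -0.38 and -0.51, well within its standard errors of 2.24 and 2.25. The call of miR-181a-5p as lower in EVs rested on the spike-in scale. Scaled by median-of-ratios factors, TMM factors or the total miRNA count, its log2 EV/cell ratio in shCTR was -0.073, -0.080 and 0.14, not called (adjusted p from 0.582 to 0.699 in edgeR). In shPCBP2 it was 1.27, 1.07 and 1.70, called higher in EVs (adjusted p from 3.08e-04 to 7.71e-04 in edgeR). Those of miR-181b-5p and miR-181d-5p stayed negative and called under these 3 scalings, except that of miR-181b-5p in shPCBP2 with the total count (-0.79, adjusted p = 0.0665 in edgeR). The 25 tested miRNAs with AUUA or AUUG had a median log2 EV/cell ratio of -5.19 in shCTR against -5.05 in the 131 without. Between the conditions, the median log2 change of the ratio was -0.014 with either motif and -0.15 without. The fitted changes of miR-181b-5p and miR-181d-5p, which hold AUUG, were 0.85 and -0.96, and neither was called. hEXO was not searched for, so these medians do not address the combination of motifs that the study describes. The part of AUUG in these values was not tested.

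The ratio of 2 strands within a library needs no spike-in. The ratio of miR-181d-5p to miR-181a-5p reads was 0.696 and 0.700 in control cells but 1.60 and 1.77 in silenced cells. In EVs it was 0.226 and 0.203 without and 0.0900 and 0.123 with silencing. Replicates lay close together and the 4 conditions did not overlap. Silencing thus went with a higher ratio in cells and a lower ratio in EVs. The ratio of miR-181b-5p to miR-181a-5p was 0.791 and 0.961, then 1.27 and 1.31 in cells, but 0.209 and 0.236, then 0.257 and 0.191 in EVs, where the conditions overlapped. For miR-181d-5p to miR-181b-5p, which differ by 1 base within their shared length, the values were 0.880 and 0.728, then 1.26 and 1.35 in cells, and 1.08 and 0.858, then 0.350 and 0.643 in EVs. The conditions did not overlap in either compartment for this pair.

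**Figure D4:**
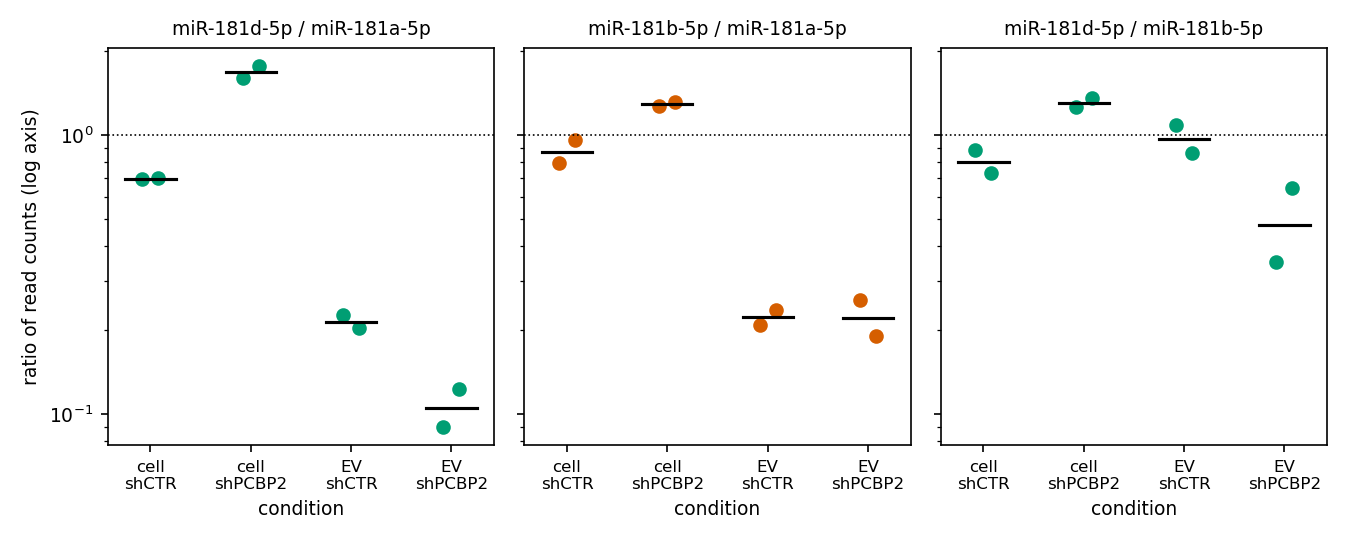
Ratio of read counts between pairs of guide strands (log axis) in each condition, with a point for each library, a line at the geometric mean of both, and a dotted line at equal counts. For miR-181d-5p to miR-181a-5p the cell shPCBP2 libraries are highest (1.60 and 1.77) and the EV shPCBP2 libraries lowest (0.0900 and 0.123).

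These ratios were tested by scaling the libraries to miR-181a-5p, which leaves 179 tested miRNAs. The EV/cell ratio of miR-181d-5p relative to miR-181a-5p was 4.87-fold lower in shPCBP2 than in shCTR (log2 change -2.28, standard error 0.27, adjusted p = 0.00334, edgeR quasi-likelihood test, Benjamini-Hochberg adjusted). Leaving out each of the 8 libraries in turn gave log2 changes from -2.52 to -2.08 and adjusted p-values from 0.00132 to 0.0266 in edgeR. The change of the reference itself is part of each such value, and 33.0% of all tested miRNAs were called on this scale, with a median log2 change of -1.46. miR-181b-5p relative to miR-181a-5p was at -0.55 (standard error 0.28, adjusted p = 0.220 in edgeR), and miR-181c-5p at -1.73 (standard error 2.75). Without EV shPCBP2 replicate 1 both were called, at -0.78 and -13.02 (adjusted p = 0.0451 and 0.0108 in edgeR).

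Taken by compartment, miR-181d-5p relative to miR-181a-5p was 2.41-fold higher in shPCBP2 cells (log2 change 1.27, standard error 0.19, adjusted p = 0.00779) and 2.02-fold lower in shPCBP2 EVs (log2 change -1.01, standard error 0.19, adjusted p = 0.0270), by the edgeR quasi-likelihood test, Benjamini-Hochberg adjusted. On this scale 21.8% of all tested miRNAs were called in cells and 9.50% in EVs, with median log2 changes of 0.93 and -0.43. The call in cells was lost without cell shCTR replicate 1 or 2 or cell shPCBP2 replicate 2, where the log2 change was 1.19 to 1.27 and the adjusted p in edgeR was 0.0654 to 0.0788. The call in EVs was lost without any 1 of the cell libraries or of the EV shCTR libraries, at log2 changes of -1.09 to -0.93 and adjusted p-values of 0.0609 to 0.0912 in edgeR. miR-181b-5p relative to miR-181a-5p gave 0.56 in cells (standard error 0.20, adjusted p = 0.0993 in edgeR) and 0.0070 in EVs. Without EV shPCBP2 replicate 1 or 2, its value in cells was called at the same log2 change (adjusted p = 0.0376 and 0.0360 in edgeR). miR-181c-5p relative to miR-181a-5p was called in EVs only without EV shPCBP2 replicate 1, at -12.22.

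Between compartments, miR-181b-5p and miR-181d-5p were both lower in EVs than miR-181a-5p was. In shCTR their EV/cell ratios were 3.93-fold and 3.25-fold lower than that of miR-181a-5p (adjusted p = 8.47e-04 and 0.00116, edgeR quasi-likelihood test, Benjamini-Hochberg adjusted), where 19.0% of tested miRNAs were called lower. In shPCBP2 they were 5.77-fold and 15.8-fold lower (adjusted p = 1.59e-04 and 3.74e-05 in edgeR), where 38.5% were called lower. Both calls held in both conditions when any single library was left out. miR-181c-5p relative to miR-181a-5p was not called (log2 ratios -0.42 and -2.15, standard errors 1.93 and 2.01), except in shPCBP2 without EV shPCBP2 replicate 1, at -13.44.

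Scaled to miR-181b-5p instead, which carries the same AUUG and differs by C12U, the EV/cell ratio of miR-181d-5p had a log2 change of -1.66 with silencing (standard error 0.50). This missed the threshold (adjusted p = 0.164, edgeR quasi-likelihood test, Benjamini-Hochberg adjusted), which 0.559% of tested miRNAs passed. The value was -2.17 and called without EV shPCBP2 replicate 2 (adjusted p = 0.00694 in edgeR). In shCTR the EV/cell ratios of miR-181d-5p and miR-181b-5p differed by 0.27 (standard error 0.35) and were not separated. In shPCBP2 that of miR-181d-5p was 2.63-fold lower (log2 ratio -1.39, standard error 0.36, adjusted p = 0.0220 in edgeR), where 6.15% of tested miRNAs were called lower. The call was lost on leaving out replicate 1 of the shCTR cells or either replicate of the shPCBP2 cells, with adjusted p-values of 0.0509, 0.102 and 0.126 in edgeR at log2 ratios of -1.39, -1.44 and -1.34. By compartment, miR-181d-5p relative to miR-181b-5p was at 0.70 in cells (standard error 0.35) and at -0.97 in EVs (standard error 0.36), and neither was called. In EVs it was called at -1.47 without EV shPCBP2 replicate 2 (adjusted p = 0.0121 in edgeR). miR-181c-5p relative to miR-181b-5p was at -1.30 for the change of the ratio (standard error 2.71), and was called without EV shPCBP2 replicate 1 alone, at -14.48 for that change and -14.27 in EVs.

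miR-181c-5p and miR-181d-5p come from adjacent hairpins in the same intron, yet were counted at very different levels. miR-181c-5p reads were 2.70% to 4.76% of miR-181d-5p reads in the 4 cell libraries. In EVs the value was 4.95% and 16.2% without and 25.7% and 0% with silencing, a range set by 0 to 128 reads. The count of 0 in EV shPCBP2 replicate 2 allows up to 3 reads by counting error alone. On the spike-in scale, the shPCBP2 EV libraries, at 3.41 and 0, overlapped the control EV libraries at 1.58 and 4.07. No EV change of miR-181c-5p thus stood out from the spread between replicates.

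The passenger strands tell the miR-181a hairpins apart, because those of Mir181a-1 and Mir181a-2 differ (U5C and U16C) while their guide strands are identical. Both hairpins are shown with the arms in capitals, miR-181a-5p first (RefSeq, GRCm38.p6, plus strands of chr1:137966455-137966541 and chr2:38852735-38852810).
Mir181a-1: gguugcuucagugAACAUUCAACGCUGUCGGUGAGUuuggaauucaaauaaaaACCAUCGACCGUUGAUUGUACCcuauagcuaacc
Mir181a-2: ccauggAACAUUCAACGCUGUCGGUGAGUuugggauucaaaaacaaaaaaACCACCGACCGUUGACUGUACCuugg
miR-181a-1-3p holds AUUG from base 15 and miR-181a-2-3p does not. In cells, 1010 and 597 reads of miR-181a-1-3p were counted without and 470 and 532 with silencing, or 1.01% to 2.16% of the reads of miR-181a-5p. It had 0 reads in all 4 EV libraries. miR-181a-2-3p had more reads in 3 of the 4 EV libraries than in any cell library, with 0 and 35 reads in control cells and 13 and 7 in silenced cells, but 153 and 0 in control EVs and 204 and 214 with silencing. Those EV reads amounted to 3.90%, 0%, 3.68% and 6.50% of the miR-181a-5p reads of the same libraries. Compartments overlapped for miR-181a-2-3p through EV shCTR replicate 2, and its fitted log2 EV/cell ratios were 1.31 and 3.45 without and with silencing (standard errors 2.62 and 2.84), neither called (adjusted p = 0.653 and 0.310, edgeR quasi-likelihood test, Benjamini-Hochberg adjusted). Its log2 changes with silencing, -0.97 in cells, 1.18 in EVs and 2.14 for the ratio, had standard errors of 2.60 to 3.70 and were not called either. Without EV shCTR replicate 1 its log2 EV/cell ratio in shCTR was -7.70, and without EV shCTR replicate 2 it was 9.11.

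miR-181c-3p was the most abundant passenger strand relative to its guide. In cells, 1452 and 856 of its reads were counted without and 764 and 736 with silencing, or 53.6% to 63.9% of the reads of miR-181c-5p, and it had 0 reads in all 4 EV libraries. miR-181d-3p had 48, 0, 9 and 4 reads in the cell libraries and 0 in EVs. miR-181b-1-3p had 1 read in cell shCTR replicate 1 and 0 elsewhere, and miR-181b-2-3p had 0 reads in every library. For the strands at 0 in EVs, a floor of 3 reads per library gives a bound, provided that counts this low were kept in EV libraries. miR-181a-1-3p was at least 424-fold lower in EVs than in cells in shCTR and at least 316-fold lower in shPCBP2, against 28.8-fold and 11.1-fold for its guide strand. miR-181c-3p was at least 609-fold and 474-fold lower, against 39.8-fold and 42.5-fold for the mean levels of miR-181c-5p. At the cell ratio to the guide, 89.7 and 175 EV reads of miR-181a-1-3p and 90.9 and 74.7 of miR-181c-3p would have been counted per pair of libraries. These floors cover counting error only. Over the 4 EV libraries 13 counts of 1 to 3 were present, against 95 in the cell libraries. Counts between 0 and 40 made up 3.68% of the counts above 0 in EV libraries (28 of 761) and 41.9% in cell libraries (914 of 2179), so small EV counts were rarer than in cells for all miRNAs, and the part of this in the EV counts of 0 was not tested. With 40 reads per EV library in place of 3, chosen after seeing the data, the folds would be 31.8 and 23.7 for miR-181a-1-3p and 45.6 and 35.5 for miR-181c-3p, the last of them below that of its guide strand.

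**Figure D5:**
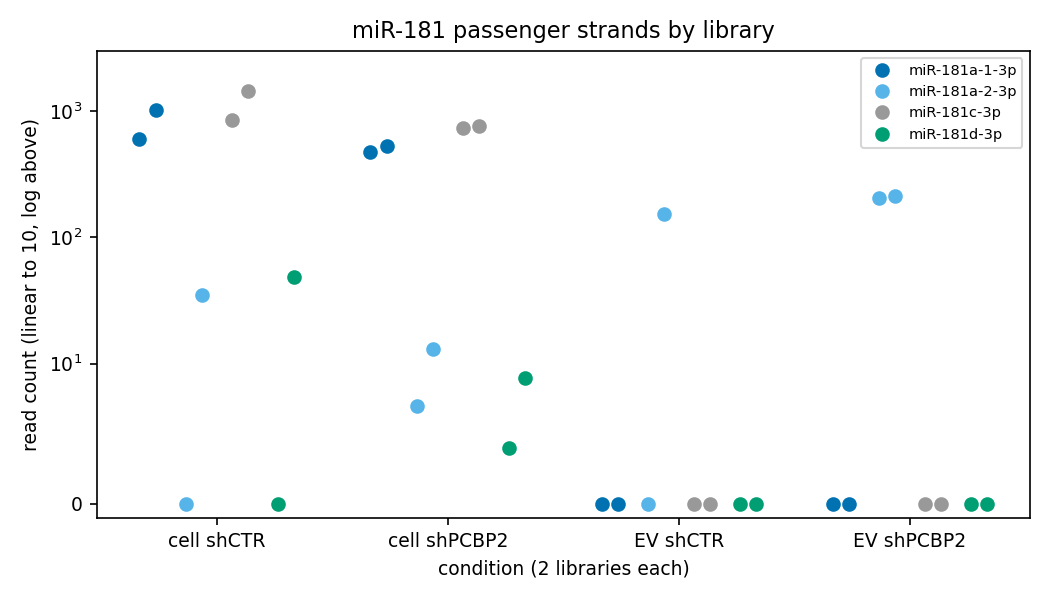
Read counts of 4 miR-181 passenger strands by condition (axis linear to 10 and logarithmic above), with a point for each library. miR-181a-1-3p and miR-181c-3p have 470 to 1452 reads in cells and 0 in EVs, while miR-181a-2-3p has at most 35 reads in cells and up to 214 in EVs. miR-181b-1-3p and miR-181b-2-3p, with at most 1 read, are not drawn.

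Profiles across the 8 libraries were compared by the root mean square distance of log2 levels, each centred on its own mean. This is a description over 8 libraries of unequal depth, with no test. For miR-181a-5p the nearest of the tested miRNAs were miR-151-3p (0.229), miR-99b-5p (0.245) and miR-25-3p (0.357), against a median distance of 1.65. miR-151-3p had fitted log2 changes of -1.05 in cells and -0.32 in EVs, and miR-99b-5p of -1.17 and -0.28. Those of miR-25-3p were -0.55 and -0.25. The distances used these same libraries, so a likeness of such changes to those of miR-181a-5p is part of the choice. For miR-181b-5p the nearest were miR-194-5p (0.320), let-7e-5p (0.358) and let-7b-5p (0.365). For miR-181d-5p they were miR-27b-3p (0.271), miR-27a-3p (0.273) and miR-130a-3p (0.305). For miR-181c-5p they were miR-1198-5p (0.341), miR-500-3p (0.636) and miR-322-3p (0.713), all of which also had 0 reads in EV shPCBP2 replicate 2. No member was among the 3 nearest of another. The closest pair of members was miR-181b-5p and miR-181d-5p at 0.583, where miR-181d-5p ranked 25 by distance from miR-181b-5p. miR-181b-5p ranked 67 and miR-181d-5p 85 by distance from miR-181a-5p (1.15 and 1.54).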

How the data were processed

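The authors trimmed the forward reads, aligned them to miRBase hairpins and the spike-in with mirPRo and Novoalign, and deposited raw read counts per mature miRNA in 1 table for 8 libraries. The members and lists were chosen with earlier results of these data known. Samples were grouped by their titles, which number the shPCBP2 replicates differently from the descriptions. A miRNA was tested if it was read (at least 1 read) in 2 cell libraries and in 2 EV libraries.

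The main test was edgeR's quasi-likelihood test (edgeR 4.0.16, R 4.3.3) on the deposited counts, scaled by the spike-in counts, with 4 group means and the default prior count of 0.125. The same fit scaled by the count of miR-181a-5p or miR-181b-5p tested ratios between strands. p-values were adjusted over all tested miRNAs with the Benjamini-Hochberg method, with a threshold of 0.05, and standard errors come from the F statistic. The code of the fit was run on simulated counts with planted EV changes larger than the main fitted changes of the members. That run does not measure how well changes of the members' size are found. Alternatives were other scalings, filters, DESeq2 1.42.0, limma 3.58.1 (voom), robust estimation, a prior count of 2, replicate blocks, the 4 libraries of a comparison alone and each library left out. Shares, distances (with 0.5 added to counts) and figures used Python 3.11.15, pandas 2.3.3 and matplotlib 3.10.9. Named miRNAs were the members, their passenger strands and the 3 nearest profiles of each member. Replicate numbers were not used to pair the libraries, and whether equal numbers mark the same culture is not stated. Other assays of the study were not analysed here.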

Additional observations from a re-analysis of the deposited data

Results flagged for a closer look

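With PCBP2 silenced, the EV/cell ratio of miR-181d-5p relative to that of miR-181a-5p had a log2 change of -2.28. This difference was found by the interaction of compartment and shRNA in the fit scaled to miR-181a-5p. The change of the reference is part of this value. On this scale 33.0% of tested miRNAs were called, with a median log2 change of -1.46. Scaled by the spike-in, miR-181d-5p was at -0.96 and not called (adjusted p = 0.434, edgeR quasi-likelihood test, Benjamini-Hochberg adjusted). miR-181d-5p relative to miR-181a-5p was higher in both shPCBP2 cell libraries than in both shCTR cell libraries, and lower in both shPCBP2 EV libraries than in both shCTR EV libraries.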

How the results depend on the processing

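On the spike-in scale, 0 of 4 guide strands were called for the change of the EV/cell ratio, against 4 of 180 tested miRNAs. Brackets below, where given, hold the number called among all tested miRNAs, of 180 unless stated. The count of guide strands was 1 with DESeq2 (14), median-of-ratios factors (2) or the total miRNA count (6), and 2 with TMM factors (13). In cells it was 0 (0), but 1 with at least 10 counts in every library (8 of 113), DESeq2 (18) or median-of-ratios factors (1). The cell count was also 1 with TMM factors (5), the total count (3) or only the 4 libraries compared (39). With limma voom it was 2 (16). In EVs it was 0 (13), but 1 with at least 10 counts (7 of 113), DESeq2 (27), median-of-ratios (14) or TMM factors (15). For EVs against cells, 3 were called in either direction in shCTR (119) and 3 in shPCBP2 (122). They became 2 in shCTR with median-of-ratios factors (76), TMM factors (82) or the total count (75), and 2 in shPCBP2 with the total count (89). They rose to 4 in shCTR and shPCBP2 with DESeq2 (146 and 141) or limma voom (148 and 144). With only the 4 libraries compared, 4 were called in shCTR (122). With no filter, 2 passenger strands were called between EVs and cells in each of shCTR and shPCBP2, against 0 in the main fit. Without the filter, 294 of 800 miRNAs were called in each of these conditions. Relative to miR-181a-5p, 1 guide strand was called in cells (39 of 179) and 1 in EVs (17 of 179). These counts became 0 in cells (0) and 0 in EVs with the summed guide strands as reference. Relative to miR-181b-5p, the summed reference gave 2 for the ratio, against 0 with miR-181b-5p itself (1 of 179). For EVs against cells in shCTR it gave 2, against 1. Leaving out a library gave 0 to 1 in EVs, 0 to 1 for the ratio and 1 to 3 for EVs against cells in shPCBP2. The share of miR-181a-5p in EV shCTR was 69.6% without miR-181c-5p. The cause of these moves was not tested.

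Signs changed with the scaling. With median-of-ratios factors, TMM factors and the total count in turn, the log2 change of miR-181a-5p in EVs was 0.33, 0.21 and 0.43, that of miR-181b-5p in EVs 0.35, 0.24 and 0.47, that of miR-181d-5p in cells 0.25, 0.33 and 0.13, and the EV/cell ratio of miR-181a-5p in shPCBP2 1.27, 1.07 and 1.70. These scalings bring the median EV/cell ratio of all tested miRNAs to between -0.33 and 0.30, from -4.93 and -4.90. With the total count, the ratio of miR-181a-5p in shCTR was 0.14 and the ratio change of miR-181c-5p 0.033.

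With a library left out, signs changed for miR-181a-5p in EVs (-0.29 to 0.15, and -0.21 to 0.22 relative to miR-181b-5p), miR-181b-5p in EVs (-0.51 to 0.36, and -0.22 to 0.21 relative to miR-181a-5p) and miR-181d-5p in cells (-0.44 to 0.10). For miR-181c-5p the ranges were -8.32 to 0.90 for the ratio change, -8.95 to 0.27 in EVs, -12.22 to 0.069 in EVs relative to miR-181a-5p, and -0.070 to 0.57 in cells relative to miR-181b-5p. Its EV/cell ratios ranged from -1.39 to 0.16 in shCTR relative to miR-181a-5p and from -12.99 to 1.18 in shPCBP2 relative to miR-181b-5p. For miR-181a-2-3p they were -1.97 to 6.83 in cells, -7.70 to 9.11 for EVs against cells in shCTR, and -5.66 to 11.15 for the ratio change.

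Correlations of replicate differences between groups ran from -0.51 to 0.04, and from -0.12 to 0.21 over the 113 miRNAs with at least 10 counts in every library (0.18 between the shPCBP2 cells and EVs, 0.21 between the EV conditions). They did not all exceed 0.1, so the replicate numbers were not used as pairs. The replicate block left the counts of called guide strands at 0 for the ratio, 0 in EVs, 0 in cells and 3 for EVs against cells in each condition, as did the block nested in shRNA where it was run. The crossed block, added after seeing the data, gave 0 in cells. With the replicate block, miR-181c-5p relative to miR-181b-5p was at -0.28 for EVs against cells in shPCBP2, against 0.18. In EVs, miR-181c-5p rests on 0 to 128 reads per library.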
